A study of Mus musculus with 2 samples.

Results

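The lysosomal genes described here were chosen by name for their textbook roles, with earlier results of these data known. These are 34 genes, out of 24764 genes with at least 1 molecule in the series. They comprise 20 acid hydrolases and soluble cofactors (Ctsa, Ctsb, Ctsd, Ctsh, Ctsl, Ctss, Ctsz, Gla, Glb1, Gusb, Hexa, Lipa, Man2b1, Naglu, Neu1, Npc2, Psap, Tpp1, Asah1 and Grn), 7 membrane proteins (Lamp1, Lamp2, Cd63, Mcoln1, Npc1, Scarb2 and Laptm4a), 5 genes of the proton pump (Atp6v0d1, Atp6v1a, Atp6v1b2, Atp6v1h and Atp6ap1) and 2 transcription factors (Tfeb and Tfe3). Single cells came from inguinal lymph nodes that drain a tumour. One library pooled 13 nodes of wild-type (WT) mice and the other pooled 9 nodes of mice that lack ATG5 in lymphatic endothelial cells (LECs), which form the walls of lymph vessels and of the node's sinuses. From both genotypes, CD31+ CD45- Ter119- endothelial cells and CD45+ CD31- Ter119- immune cells were sorted and put together. The labels name neither the deleted exon nor the Cre driver, and the ages of the mice are not given in the sources used here.

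ATG5 is part of the conjugation machinery that builds autophagosomes, the vesicles that carry cytoplasm to the lysosome for breakdown. The lysosome is acidified by a vacuolar ATPase, its membrane is coated with heavily glycosylated proteins, and its lumen holds proteases, glycosidases and lipid-processing enzymes. TFEB and TFE3 are transcription factors that bind a CACGTG-containing element near the start of many lysosomal genes. In lymph nodes, cathepsins of antigen-presenting cells trim proteins and the invariant chain for display on MHC class II.

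The WT library held 23649554 unique molecular identifiers (UMIs, 1 per captured transcript) and the KO-labelled library 23089918, and 3837 and 4124 cells were analysed after 15 barcodes called in both libraries had been removed. Cell classes were rebuilt by clustering and named for their resemblance to marker lists. LECs numbered 712 and 212 cells, and carried all 8 LEC markers in both libraries, with the LEC regulator Prox1 at 1320 and 1332 CPM (UMIs of a gene scaled to its class's total without mitochondrial genes) against 6.27 and 10.3 in blood endothelial cells (BECs). All 8 were detected in BECs too, but their summed level was 7009 and 11351 CPM in LECs against 467 and 565 CPM in BECs. Atg5 stood at 40.9 and 44.1 CPM in LECs. Since molecules are counted at their 3' ends and the deleted exon is not named, this value checks nothing, and the library is called KO-labelled throughout. LECs of the libraries differed in niche, in sex and in mitochondrial share: 425 WT and 93 KO-labelled LECs were ceiling-like, 124 and 8 floor-like, and 38 and 85 medullary or paracortical-like. Of the LECs that could be assigned a sex, 71.3% and 50.9% were male, and 7.25% and 10.4% of LEC UMIs were mitochondrial. With 1 library per genotype there was no test, no difference has a replicate check, and a difference between genotypes cannot be told apart from one between pools. CPM carry exact Poisson, ratios exact conditional binomial and shares exact Clopper-Pearson 95% intervals, all of which cover counting error only.

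The promoters of 4 members are printed as examples of the CACGTG element. Glb1, Mcoln1 and Atp6v0d1 were, among the 5 members with the highest KO-labelled over WT ratio in LECs, those with the element, and Lamp1 has the most matches of all members; they were chosen after their values were seen. Each runs from 250 bases before to 50 bases after the transcription start, 5' to 3' on the gene's strand, from RefSeq on GRCm38.p6, and capitals mark CACGTG. The windows are chr8:13158911-13159210 on the plus strand for Lamp1, chr8:3500269-3500568 on the plus strand for Mcoln1, chr9:114400828-114401127 on the plus strand for Glb1 and chr8:105566015-105566314 on the minus strand for Atp6v0d1.
Lamp1: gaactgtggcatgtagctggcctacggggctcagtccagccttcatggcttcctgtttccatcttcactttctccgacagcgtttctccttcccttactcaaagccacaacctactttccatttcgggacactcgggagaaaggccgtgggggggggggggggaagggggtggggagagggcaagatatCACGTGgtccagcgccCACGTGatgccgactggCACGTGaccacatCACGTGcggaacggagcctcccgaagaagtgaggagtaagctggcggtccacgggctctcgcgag
Mcoln1: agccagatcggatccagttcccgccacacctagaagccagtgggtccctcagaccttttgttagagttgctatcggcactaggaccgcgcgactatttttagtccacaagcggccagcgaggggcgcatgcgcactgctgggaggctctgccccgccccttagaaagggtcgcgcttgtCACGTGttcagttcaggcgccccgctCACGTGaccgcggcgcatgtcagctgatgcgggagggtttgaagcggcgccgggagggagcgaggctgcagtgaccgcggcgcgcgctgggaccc
Glb1: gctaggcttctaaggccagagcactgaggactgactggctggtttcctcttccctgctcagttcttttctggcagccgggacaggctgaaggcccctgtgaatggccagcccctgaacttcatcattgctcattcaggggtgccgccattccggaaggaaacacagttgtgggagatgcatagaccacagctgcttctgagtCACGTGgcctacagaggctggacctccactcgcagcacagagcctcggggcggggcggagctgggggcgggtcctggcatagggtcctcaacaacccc
Atp6v0d1: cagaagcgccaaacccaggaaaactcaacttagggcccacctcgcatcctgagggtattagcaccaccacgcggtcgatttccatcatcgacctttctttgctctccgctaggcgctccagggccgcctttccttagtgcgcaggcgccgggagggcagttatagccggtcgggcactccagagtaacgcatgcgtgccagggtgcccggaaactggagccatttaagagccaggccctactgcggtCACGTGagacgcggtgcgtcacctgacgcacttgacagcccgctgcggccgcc

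Lamp1 carried 4 copies of CACGTG within 61 bases before its start, and the Mcoln1 copies began 71 and 45 bases before the start. The single copies of Glb1 and Atp6v0d1 began 48 and 3 bases before theirs. A window was found for 28 of the 34 members, with 33 windows in all because some genes have several starts; Ctsb, Ctsh, Asah1, Npc1, Atp6v1b2 and Atp6v1h had none. CACGTG, which reads the same on both strands, stood in 10 of 33 member windows (30.3%), of the genes Ctsa, Ctsd, Ctsl, Gla, Glb1, Naglu, Lamp1, Mcoln1, Atp6v0d1 and Atp6v1a. Among all 32851 promoter windows of the same length 7.15% held it, and among 78 windows of other lysosomal genes 21.8%. The longer GTCACGTG, searched on both strands and containing the core, stood in 24.2% of member windows against 2.25% of all, and the same core with GT before and AC after it, a palindrome of 10 letters, in 0 of 33 against 0.326%. A match is a description of these letters and not a site or a cause. In LECs the 10 members with CACGTG had a median log2 ratio of KO-labelled over WT of 0.15, with 8 higher and 2 lower. The 18 members whose windows lacked it had a median of 0.24, with 13 higher and 5 lower. Gla and Ctsa, which carry 2 copies each and are not printed, were among the 5 members with the lowest ratio in LECs.

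Lysosomal transcripts were most abundant in the plasmacytoid dendritic cell (pDC)-like and myeloid cells and least abundant in T cells. The 20 hydrolases summed to 16377 and 14602 CPM in pDC-like cells of the WT and KO-labelled libraries (20 and 26 cells) and to 9428 and 10719 CPM in other myeloid cells (51 and 70 cells). They reached 3772 and 4314 CPM in LECs, 3171 and 3211 in BECs, 2301 and 2293 in B cells and 1596 and 1575 in CD4 T cells. The 7 membrane proteins ran in another order: they summed to 2477 and 2839 CPM in LECs, above the 1438 and 1629 CPM of myeloid cells and the 526 and 478 CPM of B cells. The pump varied least, from 264 and 269 CPM in CD4 T cells to 598 and 810 CPM in myeloid and 621 and 474 CPM in pDC-like cells, with LECs at 411 and 470 CPM. Counting at 3' ends needs no scaling for transcript length, so CPM of different genes can be set side by side. Clusters were formed without the lysosomal genes but on the same cells, so levels over classes are given as a description. Counts of members between classes within a library have no share over all genes beside them.

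**Figure D1:**
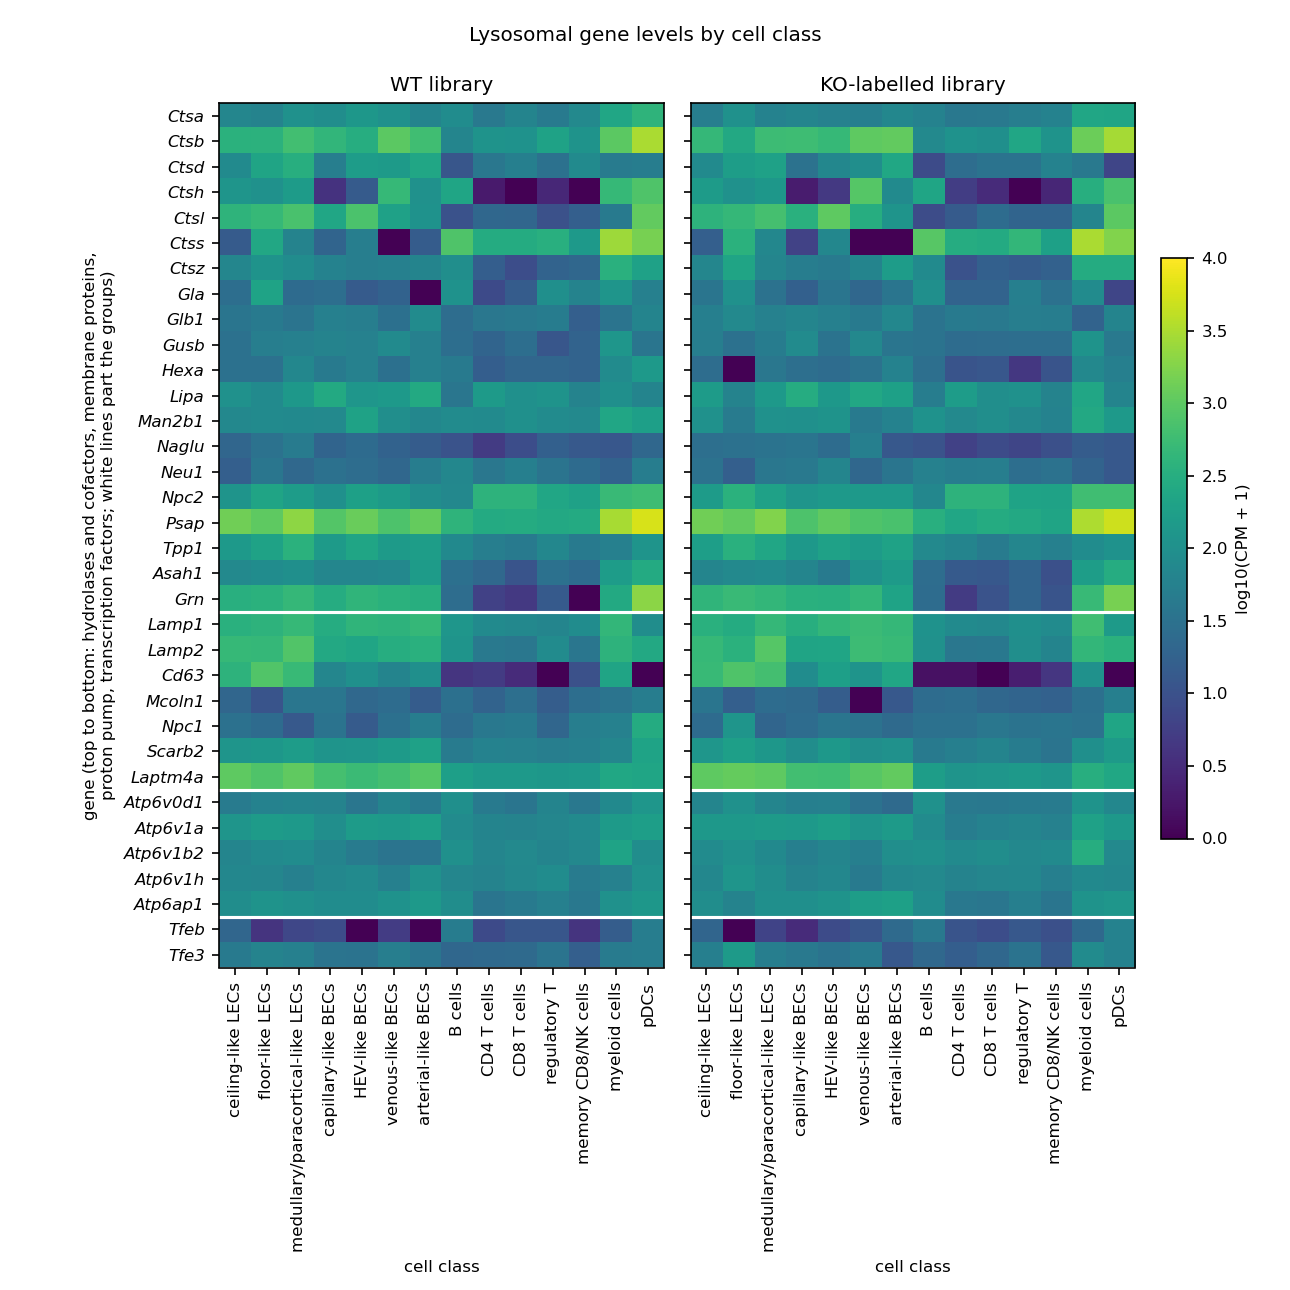
Level of each of the 34 lysosomal genes (rows) in 14 cell classes (columns) of the WT and the KO-labelled library, as log10(CPM + 1) by colour. Psap is bright throughout, with 5659 and 4869 CPM in pDC-like cells, and Cd63 is bright in LECs. Ctss is brightest in myeloid, pDC-like and B cells. Of the endothelial classes it is brightest in floor-like LECs, at a level near that of CD4 and CD8 T cells.

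Among LECs, BECs, B cells, CD4 T cells, CD8 T cells and myeloid cells, myeloid cells had the highest level of 16 of the 34 members in both libraries, and LECs of 7. Ctsz, a cysteine carboxypeptidase, stood at 340 CPM (282-407) and 291 CPM (243-345) in myeloid cells against 92.1 and 80.7 CPM in B cells, the next class. Ctss, the protease that cleaves the invariant chain, stood at 2570 and 3133 CPM in myeloid cells, 800 and 897 CPM in B cells, and 63.1 and 54.8 CPM in LECs. Ctss was thus far higher in B cells than in LECs, whereas Ctsz in LECs, at 78.7 and 76.2 CPM, lay near its level in B cells. Ctsa, the carboxypeptidase that also protects beta-galactosidase and sialidase, reached 235 and 230 CPM in myeloid cells and 90.6 and 60.5 CPM in BECs. Atp6v1b2, a subunit of the pump's ATP-hydrolysing sector, stood at 207 and 307 CPM in myeloid cells, 2.52 times its level in B cells as the mean of both libraries. Of these 6 classes, B cells had the most Tfeb, at 46.6 CPM (39.7-54.4) and 41.1 CPM (35.1-47.8), against 16.8 and 13.2 CPM in LECs.

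Cd63, a tetraspanin of late endosomes and secretory lysosomes, had the widest gap to the next class of the members highest in LECs. It stood at 475 CPM (458-494) in WT and 578 CPM (541-617) in KO-labelled LECs. Myeloid cells came next at 218 and 103 CPM, which puts LECs 2.18 times (1.74-2.77) and 5.62 times (4.18-7.73) above them. Cd63 stood at 84.4 and 81.1 CPM in BECs and at 3.16 and 0.486 CPM in B cells (11 and 2 UMIs). Barcodes of at most 100 UMIs, which stand for free RNA, held 80.8 and 37.5 CPM of it, and pDC-like cells held 0 UMIs in both libraries, with upper bounds of 25.5 and 21.3 CPM. Laptm4a, a small membrane protein of late endosomes and lysosomes, stood at 967 and 1014 CPM in LECs against 618 and 671 CPM in BECs. Ctsd, the lysosomal aspartyl protease, was highest in LECs at 132 and 141 CPM and low in myeloid cells at 45.4 and 40.3 CPM. Its locus overlaps the gene model Gm49369 on the same strand, so part of its molecules could have been counted there. Of all 34 members, 20 were higher in LECs than in BECs in both libraries and 8 lower in both, with median log2 differences of 0.18 and 0.39. The same count was not made over all genes.

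In pDC-like cells, 7 members had their highest level of all 14 classes in both libraries: Ctsb, Psap, Asah1, Grn, Mcoln1, Npc1 and Tfeb. Mcoln1 rested on only 7 and 9 UMIs there and Tfeb on 7 and 10. Both stood at 48.3 CPM (19.4-99.5) in WT, and their counting intervals contained the level of the next class in both libraries. Psap, the precursor of the saposins that help degrade sphingolipids, stood at 5659 CPM (5278-6060) and 4869 CPM (4546-5209), against 3012 and 3240 CPM in other myeloid cells. Grn, which encodes progranulin, stood at 2029 CPM (1804-2275) and 1508 CPM (1330-1702), against 269 and 492 CPM. Ctsl, a cysteine protease, was at 1097 and 976 CPM in pDC-like and at 42.5 and 64.9 CPM in other myeloid cells. Each of these gaps lay in the same direction in both libraries. All 6 pDC markers were detected in these cells, at a summed 15355 and 15151 CPM, against 996 and 492 CPM in other myeloid cells. Csf1r, Lyz2 and C1qa, which define other myeloid cells, were at 0 in the pDC-like cells. Of 19 myeloid markers 9 and 11 were detected, at a summed 6370 and 4921 CPM. The highest of them were Ly6c2 at 4562 and 3177 CPM, above its 525 and 956 CPM in myeloid cells, Fcer1g at 759 and 843 CPM and Flt3 at 428 and 266 CPM, and Itgax, Clec9a and Cd209a lay between 127 and 219 CPM. Of 8 B-cell markers 4 and 8, at 1573 and 1860 CPM, with Cd79a at 0 and 104 CPM. Their part in the result was not tested.

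In LECs, 26 of the 34 members were higher and 8 lower in the KO-labelled library, with a median log2 ratio of 0.19 against 0.04 for all 11635 genes with at least 20 UMIs. Summed over the list, LECs held 6722 CPM (6655-6790) in WT and 7697 CPM (7561-7835) in KO-labelled cells, which makes a ratio of 1.14 (1.12-1.17). The groups were close to each other: summed ratios were 1.14 for hydrolases, 1.15 for membrane proteins and 1.14 for the pump. Past a difference of at least 25% among genes with at least 100 UMIs, 10 of 34 members were higher, where 19.9% of all such genes were. At least 20% lower were 2 of 34 members, Gla and Tfeb, where 18.2% of all were. Of 80 other lysosomal genes 75 could be measured, with 43 higher, 32 lower and a median of 0.11. Among the 63 of them with at least 100 UMIs, 20 were at least 25% higher and 7 at least 20% lower.

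The size of the LEC difference moved with sex, niche and mitochondrial share. In male LECs (419 and 89 cells) the median over members was 0.07, with 19 higher and 15 lower. In female LECs (169 and 86 cells) it was 0.32, with 27 higher and 7 lower. Averaging the medullary or paracortical-like with the ceiling-like niche, each counted alike, gave 0.09. A limit of 10% on mitochondrial UMIs per cell, which kept 557 WT and 94 KO-labelled LECs, gave 0.09 as well. Their part in the result was not tested. Hydrolases alone had a median of 0.19 in all, -0.0011 in male and 0.50 in female LECs. Their summed level ran in opposite order in the sexes of each library: male WT LECs held 3974 CPM and female WT LECs 3267 CPM, whereas male KO-labelled LECs held 3960 CPM and female ones 4600 CPM. Members higher in LECs of both sexes numbered 15 of 34, lower in both 3, and of opposite direction 16.

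Neu1, the lysosomal sialidase, had the highest ratio of the hydrolases in LECs. It stood at 18.5 CPM (15.2-22.4) in WT and 32.8 CPM (24.5-43.0) in KO-labelled LECs, a ratio of 1.77 (1.24-2.49), with log2 ratios of 0.36 in male and 1.04 in female LECs. Glb1, lysosomal beta-galactosidase, stood at 38.1 CPM (33.2-43.5) and 54.8 CPM (43.9-67.6), a ratio of 1.44. The Glb1 log2 ratio was 0.62 in each sex and 0.66 as the mean over niches, which made it the steadiest of the higher hydrolases named here. Its locus overlaps Tmppe on the same strand, so its molecules may be shared between both gene models. Lipa, the acid lipase that frees cholesterol and fatty acids, stood at 102 CPM (93.8-111) and 136 CPM (119-155), a ratio of 1.33 (1.14-1.56). Its log2 ratio was 0.19 in male and 0.76 in female LECs. Ctsb, the most abundant cathepsin of LECs after Ctsl, stood at 374 and 486 CPM, a ratio of 1.30 (1.20-1.41), with log2 ratios of 0.10 in male and 0.79 in female LECs. Under the 10% limit on mitochondrial UMIs the log2 ratio of Neu1 went from 0.82 to 0.37 and that of Lipa from 0.42 to 0.15. Glb1 went from 0.52 to 0.45 and Ctsb from 0.38 to 0.31.

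Psap, the most abundant member in LECs, stood at 1357 CPM (1327-1387) in WT and 1501 CPM (1441-1563) in KO-labelled LECs. Its log2 ratio of 0.15 turned to -0.01 in male LECs and to -0.15 as the mean over niches. Ctsd stood at 132 CPM (123-142) and 141 CPM (123-161), a ratio of 1.07 (0.915-1.24), with -0.25 in male and 0.39 in female LECs. On the lower side, Hexa, the alpha subunit of beta-hexosaminidase, stood at 35.5 and 29.6 CPM, a ratio of 0.834 (0.594-1.15). Ctsa, at 70.6 and 59.8 CPM with a ratio of 0.847 (0.670-1.06), and Ctss, at 63.1 and 54.8 CPM with a ratio of 0.868 (0.679-1.10), lay as close to equality. The counting intervals of Ctsd, Hexa, Ctsa and Ctss all contained a ratio of 1, and all 4 had opposite directions in male and female LECs.

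Gla, alpha-galactosidase A, was the lowest member at 57.4 CPM (51.3-63.9) in WT and 34.6 CPM (26.1-45.1) in KO-labelled LECs, a ratio of 0.604 (0.445-0.806). Floor-like LECs held 210 of its 328 UMIs in WT LECs and 7 of its 55 UMIs in KO-labelled LECs. In floor-like LECs Gla was lower as well, at 211 and 106 CPM, a ratio of 0.502 whose counting interval contained 1. Outside them the values lay the other way, at 26.5 and 34.3 CPM in ceiling-like LECs, a ratio of 1.30 (0.756-2.13). Medullary or paracortical-like LECs stood at 24.3 and 31.4 CPM, a ratio of 1.29 (0.558-3.34) on 8 and 23 UMIs. Cycling LECs stood at 14.9 and 21.9 CPM (9 and 3 UMIs), a ratio of 1.47 (0.256-5.89). Each of these counting intervals contained 1 as well, so a reversal of Gla outside floor-like LECs was not shown beyond counting error. The mean over the ceiling-like and the medullary or paracortical-like niche gave a log2 ratio of 0.37. Gla lies on the X chromosome, as do Lamp2, Atp6ap1 and Tfe3.

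**Figure D2:**
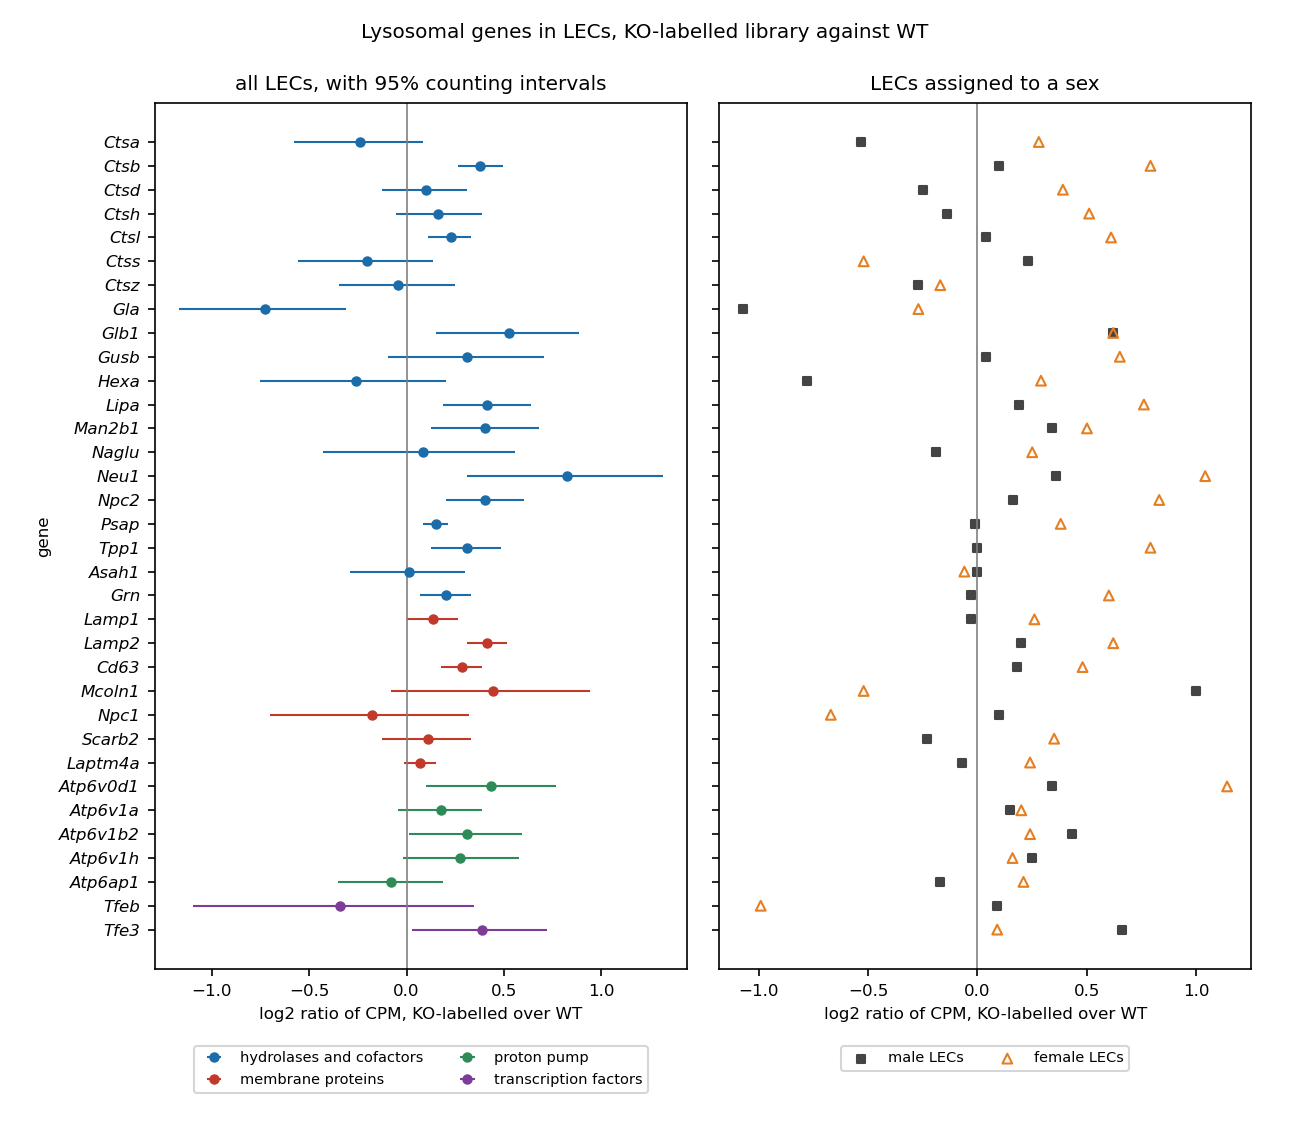
Log2 ratio of KO-labelled over WT CPM (x axis) of each lysosomal gene (y axis) in all LECs with 95% counting intervals (left) and in LECs assigned to a sex (right, squares male and triangles female). In all LECs 26 of 34 points lie above 0 and Gla lies lowest at -0.73, and on the right 16 genes have the sexes on opposite sides of 0.

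LAMP1 and LAMP2 are the main glycoproteins of the lysosomal membrane. Lamp2 stood at 502 CPM (484-521) and 667 CPM (628-709) in WT and KO-labelled LECs, a ratio of 1.33 (1.24-1.43), and was higher in both sexes. The gap differed between niches: Lamp2 stood at 480 and 472 CPM in ceiling-like and at 817 and 871 CPM in medullary or paracortical-like LECs, and the mean over these gave a log2 ratio of 0.03. It was lower in floor-like LECs at 464 and 363 CPM, a ratio of 0.781 (0.496-1.18), and higher in cycling LECs at 420 and 692 CPM, a ratio of 1.65 (1.29-2.09). The niche with the higher Lamp2 level made up more of the KO-labelled LECs. Lamp1 stood at 362 CPM (346-378) and 396 CPM (366-428), a ratio of 1.10, and its log2 ratio of 0.13 turned to -0.03 both in male LECs and as the mean over niches. Mcoln1, a calcium channel of the lysosomal membrane, stood at 21.3 CPM (17.7-25.5) and 29.0 CPM (21.2-38.7), higher in male LECs but at a log2 ratio of -0.52 in female LECs. Its log2 ratio of 0.44 in all LECs was 0.08 under the 10% limit on mitochondrial UMIs. Npc1, the cholesterol exporter, was at 29.9 and 26.5 CPM, and its partner Npc2, the soluble carrier, at 137 and 181 CPM.

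Of the pump genes, 4 of 5 were higher in KO-labelled LECs. Atp6v0d1, which joins the membrane sector to the rest of the pump, stood at 47.9 CPM (42.4-53.9) and 64.9 CPM (53.0-78.7), a ratio of 1.35 (1.07-1.70). Atp6v1a, the catalytic subunit, stood at 128 and 145 CPM and Atp6v1b2 at 68.5 and 85.0 CPM. Atp6ap1, an accessory subunit, was at 99.1 and 93.9 CPM. The median of the 5 was 0.28 in all LECs and 0.03 under the 10% limit on mitochondrial UMIs. Of the other lysosomal genes, the pump subunit Tcirg1 had the highest ratio in LECs among those with at least 100 UMIs, 2.27 (1.81-2.85) at 81.9 CPM in KO-labelled cells, followed by Slc17a5, the sialic acid exporter, at 26.1 and 50.4 CPM; the acid glucosidase gene Gaa had the lowest, at 37.8 and 24.6 CPM. Of the transcription factors, Tfe3 stood at 46.3 CPM (40.9-52.3) and 60.5 CPM (49.0-73.8), a ratio of 1.31 (1.02-1.65), and Tfeb at 16.8 CPM (13.6-20.5) and 13.2 CPM (8.19-20.2), a ratio of 0.788 (0.467-1.27). The intervals of both ratios overlapped. Tfe3 had log2 ratios of 0.66 in male and 0.09 in female LECs, and Tfeb of 0.09 and -0.99, on 12 and 7 Tfeb UMIs in the KO-labelled library.

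The niches of LECs differed from each other in lysosomal genes within each library. Medullary or paracortical-like LECs, which line the sinuses where lymph leaves the node, were higher than ceiling-like LECs of the subcapsular sinus for 29 of 34 members in WT, with a median log2 difference of 0.43. In the KO-labelled library this held for 22 of 33 members with a median of 0.13, and 20 were higher in both libraries. The comparison was not made over all genes, so whether lysosomal genes differ from other genes between these niches was not tested. Ctsd stood at 322 CPM (264-389) in medullary or paracortical-like against 82.4 CPM (73.0-92.8) in ceiling-like WT LECs, and at 194 CPM (163-229) against 82.4 CPM (60.8-109) in the KO-labelled library. Ctsl stood at 708 against 401 CPM in WT and at 660 against 390 CPM in the KO-labelled library. Tpp1, a peptidase that trims tripeptides from protein ends, stood at 358 against 142 CPM and at 228 against 173 CPM.

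Floor-like LECs, the inner lining of the subcapsular sinus, carried a different set. Ctss stood at 251 CPM (221-284) in floor-like against 12.9 CPM (9.36-17.4) in ceiling-like WT LECs, a ratio of 19.4 (14.0-27.5). In the 8 floor-like cells of the KO-labelled library it was at 363 CPM (233-540) against 15.5 CPM (7.06-29.3). A Ctss molecule was found in 46.0% of floor-like and 6.82% of ceiling-like WT LECs (median 8003 and 7921 UMIs per cell), or in 39 of 122 and 12 of 394 cells thinned to 3000 UMIs, which left out 2 and 31. Free RNA held 165 and 207 CPM of Ctss. Of the 19 myeloid markers 8 and 3 were detected in floor-like LECs, at a summed 483 and 605 CPM, against 367 and 285 CPM in ceiling-like LECs. Csf1r, Itgam, Adgre1 and C1qa were at 0 in floor-like LECs of both libraries and Lyz2 was at 23.1 and 0 CPM, whereas Fscn1 stood at 203 and 227 CPM. Gla stood at 211 CPM (183-241) and 106 CPM (42.6-218) in floor-like LECs, its highest level of the 14 classes in both libraries. Cd63 also peaked there, at 806 CPM (751-863) and 801 CPM (600-1048), against 378 and 500 CPM in ceiling-like LECs. Between the libraries 15 of 31 measured members were higher and 16 lower in floor-like LECs, with Ctsz at 112 and 212 CPM, Tpp1 at 200 and 348 CPM, and Atp6ap1 at 113 CPM and 60.5 CPM (16.5-155). At least 25% higher were 7 of 18 members (25.6% of all genes) and at least 20% lower 6 (32.4%), on 8 KO-labelled cells.

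**Figure D3:**
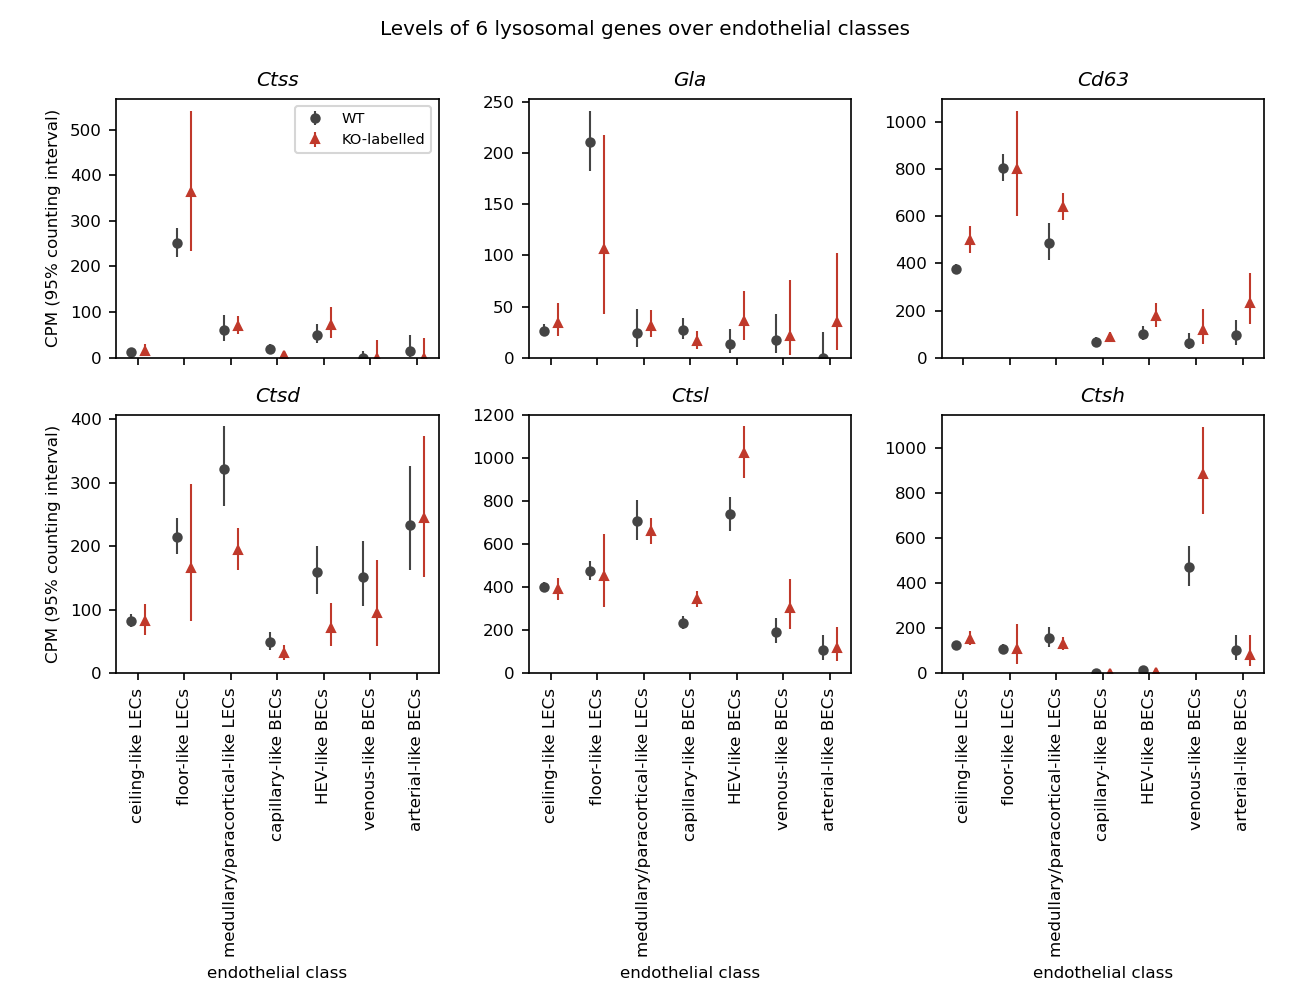
CPM with 95% counting intervals (y axis, linear) of Ctss, Gla, Cd63, Ctsd, Ctsl and Ctsh in 7 endothelial classes (x axis), circles for the WT and triangles for the KO-labelled library. Ctss and Gla peak in floor-like LECs, Ctsl in high endothelial venule (HEV)-like BECs with 739 and 1023 CPM, and Ctsh in venous-like BECs with 471 and 882 CPM.

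The difference between the libraries took opposite signs in the 2 niches with at least 30 cells in each. In ceiling-like LECs 24 of 34 members were higher and 10 lower, with a median of 0.27 against 0.05 for all genes. Scaling by the median of ratios in place of totals made this 20 and 14, with a median of 0.23. Among members with at least 100 UMIs, 10 of 29 were at least 25% higher (23.4% of all genes) and 2 at least 20% lower (19.9%). Gusb, beta-glucuronidase, stood at 30.1 and 49.8 CPM, a ratio of 1.65 (1.05-2.52), and Lipa at 104 and 156 CPM. Ctsa was the lowest at 66.8 and 49.8 CPM, a ratio of 0.745 (0.488-1.10), beside Npc1 at 30.4 and 24.0 CPM, a ratio of 0.791 (0.417-1.39). The ceiling-like median was 0.04 in male cells, 0.55 in female cells and 0.04 under the 10% mitochondrial limit. Its sub-clusters were also unevenly shared: one led by Cdkn1a and Plat held 89 WT and 0 KO-labelled cells, and one led by Nr4a1 and Hspb1 held 96 and 8.

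In medullary or paracortical-like LECs 12 of 32 measured members were higher and 20 lower in the KO-labelled library, with a median of -0.09 against -0.01 for all genes. At least 25% higher were 2 of 17 members with at least 100 UMIs (18.9% of all genes), and at least 20% lower were 3, Ctsd, Tpp1 and Scarb2 (16.7%). Ctsd stood at 322 CPM (264-389) and 194 CPM (163-229), a ratio of 0.602 (0.465-0.782), and Tpp1 at 358 CPM (297-429) and 228 CPM (195-265), a ratio of 0.636. Psap stood at 2068 and 1715 CPM, a ratio of 0.829 (0.755-0.912). Hydrolases summed to 5646 CPM (5393-5909) and 4884 CPM (4726-5047), whereas membrane proteins summed to 3056 and 3153 CPM. Cd63 was among the higher members at 489 and 640 CPM, with a ratio of 1.31 (1.09-1.58), and Man2b1, lysosomal alpha-mannosidase, stood at 79.0 and 104 CPM, a ratio of 1.31 (0.832-2.14). Of the cells assigned to a sex, 62.9% of WT and 37.5% of KO-labelled ones were male. In male cells the median was -0.23 and in female cells 0.05. Between both niches, 16 of 32 members had opposite directions, and the difference between niches was not tested.

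The Atg5 deletion is aimed at LECs, and BECs are the other endothelial cells of the same sort. BECs showed no shared direction: 14 members were higher and 20 lower, the median was -0.08 against -0.02 for all genes, and the summed ratio was 1.01 (0.991-1.04). Of 33 members with at least 100 UMIs, 0 were at least 25% higher (11.4% of all genes) and 6 at least 20% lower (14.7%). Those 6 were Ctsa, Ctsd, Ctsh, Ctss, Hexa and Scarb2. The count of 0 depends on where the mark of 25% is set, as Ctsb, Grn, Ctsl, Neu1 and Atp6v1b2 lay just below it. Venous-like BECs held 112 of the 138 WT and 84 of the 100 KO-labelled Ctsh UMIs, and there Ctsh was higher, at a ratio of 1.87 (1.40-2.51). They numbered 41 WT and 16 KO-labelled cells, and 33.3% and 80.0% of those assigned to a sex were male. Single venous-like cells held up to 28 of the WT and 25 of the KO-labelled Ctsh UMIs. The counting interval does not cover this spread between cells. In all BECs, Ctsd stood at 86.8 CPM (76.3-98.3) and 48.6 CPM (40.5-57.8), a ratio of 0.560 (0.449-0.696). Ctss stood at 23.0 and 13.4 CPM, a ratio of 0.582 (0.375-0.890). Ctsb had the highest ratio, at 477 and 595 CPM, with a log2 ratio of 0.32 and a ratio interval of 1.16-1.34. Grn followed at 299 and 373 CPM, a ratio of 1.24 (1.13-1.37). Ctsl stood at 301 and 372 CPM, a ratio of 1.24 (1.13-1.36). Neu1 and Atp6v1b2 had ratios of 1.24 (0.917-1.67) and 1.24 (0.987-1.57), whose intervals contained 1. A cluster led by Cxcl9 and Cxcl10 held 2 WT and 62 KO-labelled BECs, in which Ctsb was at 748 CPM and Grn at 563 CPM. Without it the ratio was 1.19 for Ctsb and 1.13 for Grn, and that of Ctsd was 0.559 (0.442-0.703). Under the 10% mitochondrial limit the BEC median was 0.09. Of the BECs assigned to a sex, 79.6% and 68.2% were male, and 13 of 29 members measured in both sexes had opposite directions in them. The ratio of Ctsb was 1.33 (1.21-1.45) in male and 0.876 (0.722-1.06) in female BECs, that of Grn 1.26 (1.12-1.41) and 0.959 (0.727-1.27), and that of Ctsh 1.18 (0.839-1.66) and 0.182 (0.0847-0.359). Ctsd was lower in both, at 0.543 and 0.285, and the part of sex in these differences was not tested.

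Among BEC subtypes, Ctsh stood out in venous-like and Ctsl in HEV-like cells, in both libraries. Ctsh, an aminopeptidase, stood at 471 CPM (388-566) and 882 CPM (704-1092) in venous-like BECs, at 103 and 81.3 CPM in arterial-like, 13.0 and 3.55 CPM in HEV-like and 2.81 and 1.05 CPM in capillary-like BECs. It was found in 41.5% (26.3-57.9) of WT and in 8 of 16 KO-labelled venous-like cells and in 0.855% (0.104-3.05) and 0.546% (0.0138-3.01) of capillary-like cells. The medians were 5239 and 5430 UMIs per venous-like and 4554 and 4587 per capillary-like cell. Thinned to 3000 UMIs, the venous-like shares were 37.8% and 43.8%. Although the clustering did not use it, Ctsh was among the 10 leading genes of the venous-like cluster. Ctsl stood at 739 CPM (662-821) and 1023 CPM (909-1149) in HEV-like BECs, named for the venules through which lymphocytes enter the node, against 233 and 343 CPM in capillary-like BECs.

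Between the libraries, Ctsl was higher in both of these classes, with a ratio of 1.39 (1.18-1.63) in HEV-like and 1.47 (1.24-1.74) in capillary-like BECs. By sex, the HEV-like ratio was 1.14 (0.895-1.45) in male and 1.87 (1.28-2.82) in female cells, and the capillary-like ratio 1.22 (0.981-1.52) and 2.73 (1.36-6.21). Over all BECs, the Ctsl ratio was 0.917 (0.810-1.04) in male and 2.65 (2.08-3.40) in female cells. In capillary-like BECs Atp6v1a stood at 92.6 and 141 CPM, a ratio of 1.52 (1.16-1.99), and 6 of 23 members were at least 25% higher (17.6% of all genes) and 2 at least 20% lower (16.4%). Those 2 were Ctsa, at 90.8 and 66.2 CPM, and Scarb2, the receptor that carries glucocerebrosidase to lysosomes, at 116 and 90.4 CPM. In HEV-like BECs Ctsb stood at 313 and 476 CPM, a ratio of 1.52 (1.19-1.94), with 0.986 (0.670-1.43) in male and 2.39 (1.32-4.70) in female cells. There Man2b1 stood at 203 and 114 CPM, a ratio of 0.560 (0.363-0.845), and Npc2 at 188 and 142 CPM. At least 25% higher in HEV-like BECs were 2 of 11 members (17.8%), and at least 20% lower 2 (20.4%). Sexes differed here too, with 87.7% and 43.2% male among HEV-like and 89.9% and 70.8% among capillary-like BECs, and their part in the result was not tested.

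**Figure D4:**
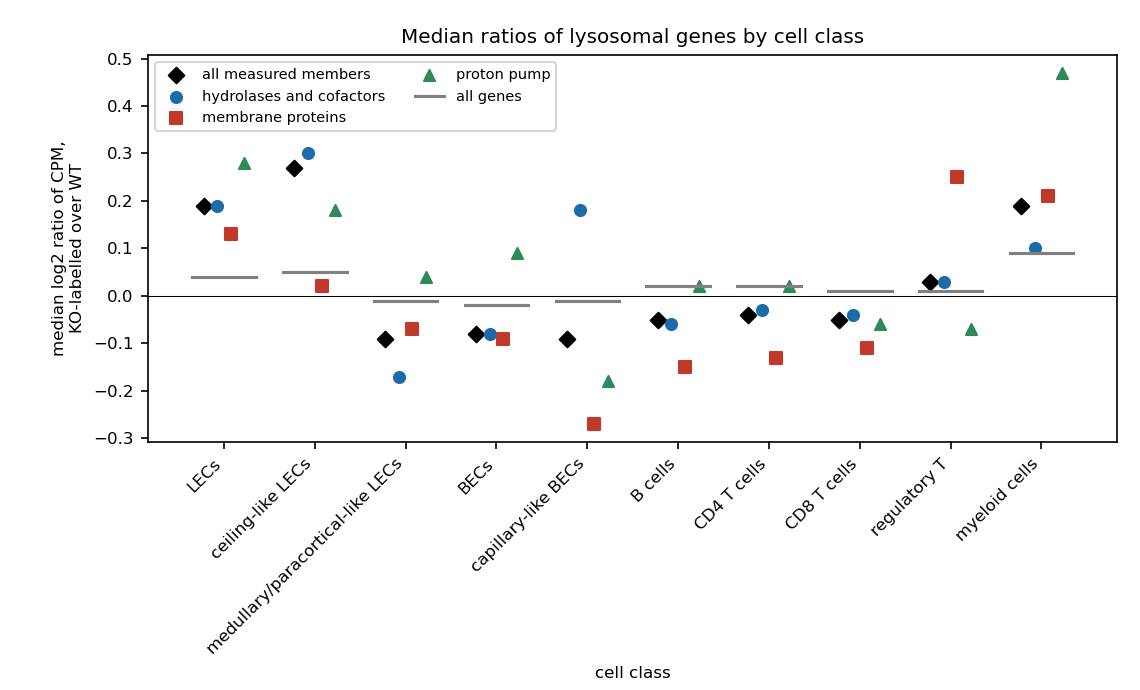
Median log2 ratio of KO-labelled over WT CPM (y axis) in 10 cell classes (x axis) for all measured lysosomal genes (diamonds) and for hydrolases, membrane proteins and pump genes, with the median of all genes as a grey line. LECs lie at 0.19 against 0.04 and myeloid cells at 0.19 against 0.09, whereas BECs, B, CD4 T and CD8 T cells lie between -0.08 and -0.04.

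In B cells 12 of 33 members were higher and 21 lower, with a median of -0.05 against 0.02 for all genes. At least 25% higher were 3 of 30 members, Glb1, Lipa and Man2b1 (8.25% of all genes), and at least 20% lower were 3, Ctsa, Hexa and Neu1 (9.29%). Lipa stood at 36.2 CPM (30.2-43.2) and 48.6 CPM (42.1-55.8), and Man2b1 at 83.4 CPM (74.1-93.6) and 108 CPM (97.9-118). Hexa stood at 42.9 CPM (36.3-50.3) in WT, with a ratio of 0.652 (0.507-0.837), and Ctsa at 85.7 CPM (76.3-96.0) and 57.4 CPM (50.3-65.2). The male share was 79.5% and 50.3% of sexed B cells, and its part in the result was not tested.

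In T cells the medians lay near 0. In CD4 T cells 13 members were higher and 17 lower, with a median of -0.04 against 0.02 for all genes, and 3 of 20 were at least 25% higher (12.4% of all genes) and 2 at least 20% lower (11.5%). Neu1 stood at 36.9 and 48.2 CPM, Tpp1 at 49.5 and 62.9 CPM, Atp6v1a at 63.1 and 48.2 CPM and Npc1 at 38.8 CPM with a ratio of 0.772 (0.510-1.18); the counting intervals of these genes overlapped between the libraries. Of the CD4 T cells assigned to a sex, 78.9% and 61.5% were male, and 8 of 17 members had opposite directions in the sexes. Neu1 was among them, with a ratio of 1.98 (1.09-3.77) in male and 0.319 (0.129-0.798) in female CD4 T cells, on 11 to 43 UMIs per library. In CD8 T cells 0 of 21 members were at least 25% higher (10.7%) and 2 at least 20% lower (9.83%), namely Ctsa at 62.9 and 40.2 CPM and Ctsd at 51.5 and 32.9 CPM. In these cells Atp6v1b2 stood at 76.5 and 89.7 CPM and Scarb2 at 57.2 and 63.2 CPM. In regulatory T cells Ctss stood at 332 CPM (286-384) and 449 CPM (406-496), Lamp1 at 65.8 and 95.6 CPM, Gla at 97.8 CPM (73.6-127) and 53.0 CPM (38.8-70.7), and Atp6v1h at 87.1 and 70.3 CPM. There 2 of 11 members were at least 25% higher (14.9%) and 1 at least 20% lower (12.2%). In memory CD8 T or NK cells Ctss stood at 144 and 190 CPM, Npc2 at 191 and 203 CPM, Psap at 281 and 218 CPM and Laptm4a at 138 and 122 CPM. Of 5 members there, 1 was at least 25% higher (17.3%) and 1 at least 20% lower (12.1%).

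Among 31 members measured in myeloid cells, 20 were higher and 11 lower, and the median was 0.19 against 0.09 for all genes. At least 25% higher were 7 of 17 members (27.5% of all genes) and at least 20% lower 2 (19.1%). Lipa stood at 96.4 CPM (66.8-135) and 230 CPM (188-280), a ratio of 2.39 (1.61-3.63), and Grn at 269 CPM (218-329) and 492 CPM (429-562), a ratio of 1.83 (1.43-2.35). Cd63 stood at 218 CPM (172-273) and 103 CPM (75.4-137), and Ctsh at 471 and 316 CPM. All 5 pump genes among the members were higher, with a summed ratio of 1.35 (1.14-1.61). The pump genes among the other lysosomal genes went the other way. Of 12 measured, 4 were higher and 8 lower, and the summed ratio of that list was 0.948 (0.860-1.05). Of the myeloid cells assigned to a sex, 92.7% and 58.7% were male, and the part of sex was not tested. The class joined several cell types in different proportions: the sub-cluster led by F13a1 and Fn1 held 14 WT and 32 KO-labelled cells, and the one led by Mgl2 and Cd209a 18 and 12. Within the first of these Lipa stood at 106 and 290 CPM and Grn at 308 and 495 CPM, and within the second Lipa was at 101 and 108 CPM and Grn at 266 and 289 CPM. In pDC-like cells 9 members were higher and 16 lower, and of 8 members with at least 100 UMIs 1 was at least 25% higher (19.8% of all genes) and 1 at least 20% lower (20.7%).

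Over 9 non-overlapping classes, 30 members could be measured in at least 7. Of these, 0 were higher in the KO-labelled library in every class measured (2.12% of all such genes) and 1 was lower in every one (2.49%). That member was Hexa, in 7 of 7 classes with log2 ratios from -1.48 to -0.20. Of 19 members measured in all 9, Ctsa alone was lower in at least 8 (7.47% of all such genes) and Atp6v1b2 alone higher in at least 8 (9.55%), so these shares lay near or below the background. In LECs both Hexa and Ctsa turned with sex, Hexa from -0.78 in male to 0.29 in female cells and Ctsa from -0.53 to 0.28. The classes share the same 2 libraries, and in free RNA Hexa stood at 45.7 and 34.1 CPM and Ctsa at 52.7 and 30.7 CPM. Hexa overlaps Tmem202 and Ctsa overlaps Neurl2 and Pltp, each on the opposite strand.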

How the data were processed

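Cells of both libraries were sequenced with the BD Rhapsody 3' whole-transcriptome assay. The deposited tables give, per the file headers, counts of UMIs per cell barcode and gene, as adjusted for errors in the UMIs by the BD Rhapsody WTA Analysis Pipeline 1.11 on mm10; the adjusted counts were used as deposited. The tables also hold barcodes far below the depth of a cell. Cells were called at the strongest bend of the cumulative UMI curve (at least 1260 and 1275 UMIs; 4074 and 4365 barcodes) and kept where at least 200 genes were detected and at most 25% of UMIs were mitochondrial (3879 and 4169). Scrublet as run by scanpy called 27 and 31 doublets (0.696% and 0.744%, at an expected 6%), which were removed, as were 15 barcodes called in both libraries. Cells were clustered with scanpy 1.11.5 and the Leiden method of igraph 0.11.9 on 2000 variable genes, leaving out lysosomal, sex-linked, mitochondrial, ribosomal and antigen-receptor genes. The clustering used 30 components and 15 neighbours at resolution 1, with 20 components for the split of pDC-like from other myeloid cells. Clusters were named from marker lists with thresholds set after the clusters were seen, and no lysosomal member is a marker. UMIs were summed per class and library and divided by the class total without mitochondrial genes. Members with at least 20 UMIs over both libraries entered ratios and medians, and those with at least 100 entered counts of differences. CPM intervals are exact Poisson, ratio intervals exact conditional binomial and shares exact Clopper-Pearson, at 95%; with 1 library per genotype no test was possible. The ratio and interval code was tested on simulated data. Members named are, for LECs, the 5 highest and 5 lowest ratios among those with at least 100 UMIs plus Lamp1, Lamp2, Ctsd, Psap, Tfeb and Tfe3; for other classes of at least 100 cells, the 2 highest and 2 lowest; for levels, those with the widest gap between the highest and the second class in each functional group. Others were named after their values were seen. Members and lists were chosen with earlier results of these data known. Cells with Y-linked molecules and no Xist were taken as male and the reverse as female. Free RNA was read from barcodes of at most 100 UMIs. Alternatives were scaling by the median of ratios, a 10% mitochondrial limit, doublets kept, at least 50 UMIs per member, each sex, the mean of per-cell CPM, resolution 2 and the mean over niches. Coordinates come from GENCODE M21 and promoters from RefSeq, both on GRCm38.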

Additional observations from a re-analysis of the deposited data

How the results depend on the processing

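No paired analysis was possible because each genotype has 1 library, and for the same reason no replicate could be left out. In LECs the hydrolase median of 0.19 was -0.0011 in male and 0.50 in female cells. Gla turned to 0.37 as the mean over niches, Lamp1 to -0.03 both in male cells and as the mean over niches, and Psap to -0.01 and -0.15 in these settings. For Gla, the counting interval of the ratio contained 1 in each niche averaged. At least 25% higher were 10 of 34 members in all LECs, 6 of 32 in male cells (21.5% of all genes) and 13 of 25 in female cells (23.3%). Of members at least 20% lower, 2 in all LECs, there were 4 of 33 under the 10% mitochondrial limit (21.1%), 1 of 25 in female cells (22.2%) and 1 of 34 by the mean of per-cell CPM (19.1%). The 10-letter palindrome was in 0 of 33 windows. The cause of these shifts was not tested. Over the whole list the LEC median ranged from 0.07 in male to 0.32 in female cells and was 0.24 without sub-clusters of 5 or fewer cells in 1 library. That setting, and the removal of the Cxcl9-led BECs, were chosen after seeing the data. Scaling by the median of ratios moved all log2 ratios of a class by at most 0.05. Depth limits the floor-like, venous-like, arterial-like and pDC-like classes most.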
